A study of Mus musculus with 6 samples.

Results

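The regulators of transcription described here build and maintain the metabolic character of the proximal tubule, and they were measured in cisplatin-injured mouse kidney: Hnf4a, Hnf4g, Ppara, Ppargc1a, Esrra, Esrrg, Rxra and Pax8. They were chosen by name, for their known roles, by a rule that used no measured value but was written with earlier results of these data known, and they are 8 of the 54532 genes in the count table. All 8 passed the filter on low counts and so were among the 15816 genes tested. Kidney RNA was sequenced from 3 wild-type (WT) and 3 Trpm2-/- mice, all on a C57BL/6J background. Trpm2 encodes a calcium-permeable cation channel that opens under oxidative stress, and the question was how its loss alters the response of the kidney to cisplatin, a platinum drug that injures tubules. Every mouse, of either genotype, received 18 mg/kg cisplatin by intraperitoneal injection and the kidneys were taken 72 h later, so there was no untreated kidney and each difference below is between 2 injured groups. The labels give an age of 6 to 8 weeks and the study's methods 8 to 10 weeks, and the methods describe the mice as male. The knockout line lacks part of Trpm2 in every cell and came from another institution, whereas the WT mice were purchased and are not described as littermates, so genotype and colony cannot be told apart. The libraries are named here by genotype and replicate number, as WT1, WT2, WT3, KO1, KO2 and KO4.

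The targeted gene did not check the genotypes. Trpm2 had 5, 5 and 27 reads in WT1, WT2 and WT3 and 10, 16 and 20 reads in KO1, KO2 and KO4, and its log2 fold change (Trpm2-/- minus WT) was 0.36 (SE 0.675, adjusted p = 0.776 by the quasi-likelihood test of edgeR, adjusted over all genes tested by the method of Benjamini and Hochberg). The count covers the whole gene and so includes exons outside the deleted part, and the value was -0.024 without WT1 and 1.61 without WT3. Counts summed to between 14053307 and 17150089 per library, and 3 reads corresponded to 0.175 to 0.213 CPM (counts scaled to a common library size). Kidney markers were abundant in every library, with the 46 mature proximal tubule genes summing to 28608 to 35082 CPM in WT and 11029 to 14460 CPM in Trpm2-/-, and lymphocyte markers to at most 2.89 CPM. The libraries differed in more than genotype. Podocyte markers summed to 534 CPM in KO4 and to 155 to 195 CPM elsewhere, endothelial markers to 237 CPM in KO4 and 63.0 to 190 CPM elsewhere, urothelial markers to 108 CPM in WT1 and 7.09 to 17.4 CPM elsewhere, and thick ascending limb markers to 797 to 2369 CPM in WT and 233 to 908 CPM in Trpm2-/-. Transcripts of the mitochondrial genome took 4.43% to 4.72% of reads in WT and 7.91% to 11.04% in Trpm2-/-.

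The proximal tubule reclaims glucose, amino acids and salts from the filtrate, and it pays for this transport mainly by burning fatty acids in its many mitochondria. Hnf4a and Hnf4g are paralogous nuclear receptors that bind as dimers to the promoters of transporter and metabolic genes, and Pax8 is a paired-box factor that specifies kidney epithelium in the embryo and remains on in adult tubules. Ppara, with its partner Rxra, drives fatty acid oxidation genes, while Esrra and Esrrg, orphan receptors coactivated by Ppargc1a, drive the respiratory chain and the tricarboxylic acid cycle.

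Promoter windows are shown for both starts of Hnf4a, whose reads the gene count pools, and for the start of the called gene Pax8. The 2 windows outside Hnf4a that held a receptor or cyclic AMP motif were added because they held it. Whether these sequences bear on the levels measured was not tested. The sequences are the 250 bases before a RefSeq transcript start (build GRCm38.p6), written 5′ to 3′ on the strand of the gene. RefSeq windows were found for 7 of the 8 genes, 12 windows in all, and not for Hnf4g. Capitals mark matches on either strand to the motifs searched, which are AGGTCA (a nuclear receptor core), GTTAAT (an HNF1 core), TGACGT (a cyclic AMP response core) and GGGCGG (a GC box).
Hnf4a, upstream start, chr2:163506607-163506856, plus strand: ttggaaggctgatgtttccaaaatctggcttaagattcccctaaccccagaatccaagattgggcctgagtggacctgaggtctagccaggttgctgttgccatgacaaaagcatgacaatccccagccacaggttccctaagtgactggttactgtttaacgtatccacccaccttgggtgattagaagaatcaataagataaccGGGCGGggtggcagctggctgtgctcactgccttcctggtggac
Hnf4a, downstream start, chr2:163546905-163547154, plus strand: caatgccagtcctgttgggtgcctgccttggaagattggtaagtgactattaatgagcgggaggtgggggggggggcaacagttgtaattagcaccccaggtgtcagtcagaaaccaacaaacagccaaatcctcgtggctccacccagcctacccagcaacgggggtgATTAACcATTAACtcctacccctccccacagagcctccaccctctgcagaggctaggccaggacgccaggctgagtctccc
Pax8, chr2:24475600-24475849, minus strand: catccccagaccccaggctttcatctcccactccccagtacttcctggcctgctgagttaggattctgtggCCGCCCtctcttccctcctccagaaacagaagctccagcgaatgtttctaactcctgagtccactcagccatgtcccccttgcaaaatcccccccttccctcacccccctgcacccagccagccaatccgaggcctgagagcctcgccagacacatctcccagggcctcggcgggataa
Rxra, downstream start, chr2:27709042-27709291, plus strand: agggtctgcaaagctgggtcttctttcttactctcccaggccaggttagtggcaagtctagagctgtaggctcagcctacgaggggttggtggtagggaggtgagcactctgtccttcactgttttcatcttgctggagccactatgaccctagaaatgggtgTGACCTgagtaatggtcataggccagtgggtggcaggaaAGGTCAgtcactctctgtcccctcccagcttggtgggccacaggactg
Ppargc1a, chr5:51567726-51567975, minus strand: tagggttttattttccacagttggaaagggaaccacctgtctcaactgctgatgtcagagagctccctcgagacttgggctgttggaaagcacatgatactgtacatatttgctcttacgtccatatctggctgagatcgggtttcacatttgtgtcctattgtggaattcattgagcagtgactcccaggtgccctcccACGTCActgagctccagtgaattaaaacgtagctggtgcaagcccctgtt
In these letters the HNF1 core occurred 2 times before the downstream start of Hnf4a, at 81 and 74 bases before it, and 6.43% of all 32851 RefSeq windows held at least 1 such match. AGGTCA occurred 2 times before the downstream start of Rxra, at 87 and 48 bases, and 14% of all windows held at least 1 match. The cyclic AMP core occurred 50 bases before the start of Ppargc1a, and 6.47% of all windows held it. The HNF1 core, AGGTCA and the cyclic AMP core were each in only 1 of the 12 windows, so no excess is read from them. The GC box was found in 7 of the 12 windows, including those of Pax8 and of the upstream start of Hnf4a, against 32.7% of all windows. Longer receptor motifs, CAAAGTCCA (an HNF4 site, in 0.384% of all windows), the DR1 element bound by PPAR with RXR (AGGTCA repeated after a spacer of 1 base, 0.0335%) and TCAAGGTCA (an ERR site, 0.387%), were in 0 of the 12 windows. The shorter AGGTCA lies inside both of the last 2 motifs.

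In WT kidneys the 8 factors spanned a wide range of levels per transcript length. Hnf4a was the most abundant at 75.3 ± 4.69 FPKM (fragments per kilobase of transcript, scaled to library size; mean ± SD, n = 3), followed by Esrra at 44.0 ± 3.84, Rxra at 23.6 ± 4.23 and Pax8 at 18.1 ± 1.30 FPKM. These 4 were apart from one another in every library. Ppara (5.77 ± 1.76 FPKM) and Ppargc1a (5.63 ± 0.749 FPKM) overlapped, Esrrg followed at 4.80 ± 0.114 FPKM, and Hnf4g was the lowest at 1.01 ± 0.215 FPKM. In Trpm2-/- kidneys Pax8 (25.3 ± 1.93 FPKM) stood above Rxra (16.8 ± 4.55 FPKM), the reverse of their WT order, with no overlap within either genotype. Hnf4a (54.0 ± 14.2 FPKM) overlapped Esrra (32.8 ± 6.39 FPKM) there, and Rxra, Ppara, Esrrg and Ppargc1a formed a chain in which each overlapped the next. Hnf4g was again the lowest, at 1.76 ± 0.328 FPKM.

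**Figure D1:**
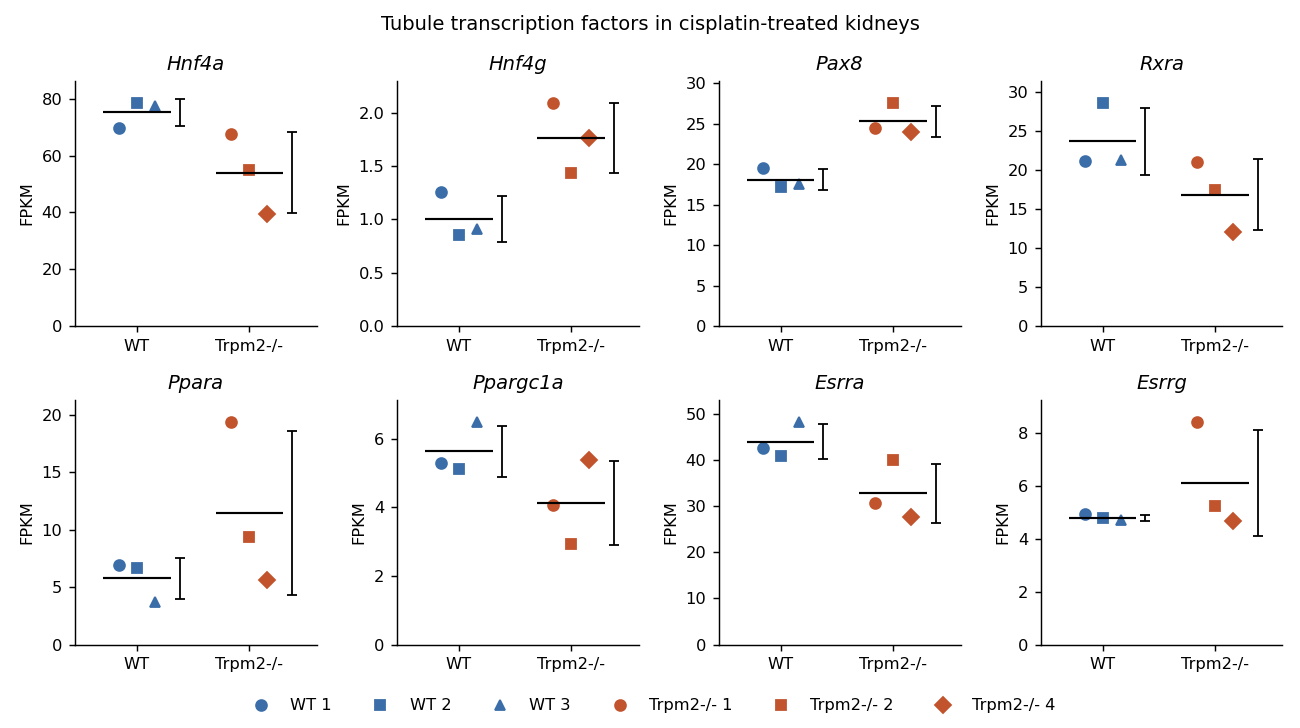
FPKM of each of the 8 factors (vertical axes, each from 0) in the 3 WT and 3 Trpm2-/- libraries, 1 symbol shape per replicate, with the group mean as a horizontal bar and ± 1 SD as the bracket beside it. Pax8 and Hnf4g are higher in all 3 Trpm2-/- libraries than in any WT library, Hnf4a, Esrra and Rxra are lower in all 3, and KO1 is the highest library for Ppara (19.4 FPKM) and Esrrg (8.42 FPKM).

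Across the 8 factors, 1 was called between the genotypes and it was higher in Trpm2-/-: Pax8, by 1.39-fold. At an adjusted p under 0.05, 0 factors were lower and 1 was higher, where 7.28% of all genes tested were lower and 4.74% higher. At an unadjusted p under 0.05, 6 of the 8 passed, 3 lower (Hnf4a, Rxra and Esrra) and 3 higher (Pax8, Ppara and Hnf4g), against 28.3% of all genes. The libraries of the 2 genotypes did not overlap for 5 of the 8, with Hnf4a, Rxra and Esrra lower (16.8% of all genes) and Pax8 and Hnf4g higher (16.7%). None of the 8 met the threshold of the study's methods, a log2 fold change beyond 1 in either direction with p under 0.05, which 4.1% of genes met lower and 3.5% higher. The median log2 fold change was -0.05 over the 8 factors and 0.02 over all genes tested. In whole kidney, fewer cells of a type and less RNA per cell cannot be told apart, so each value below is a level in the tissue.

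**Figure D2:**
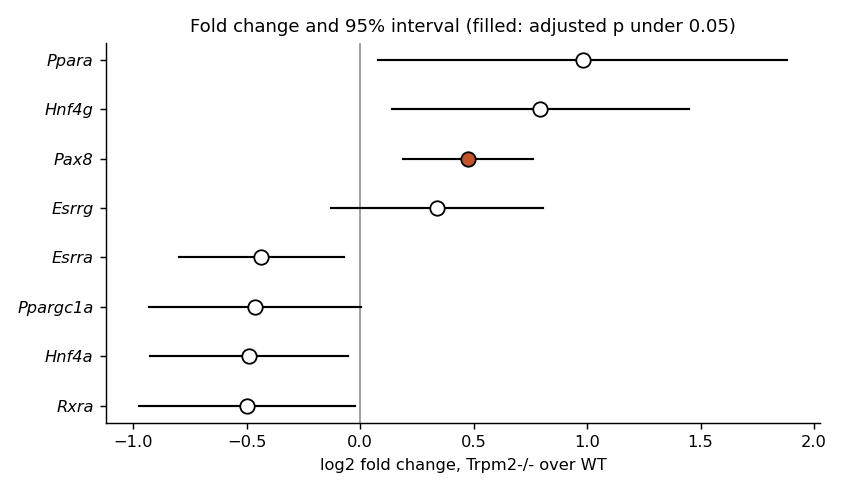
Log2 fold change (Trpm2-/- minus WT, horizontal axis) of the 8 factors with 95% confidence intervals from edgeR's quasi-likelihood fit of 3 WT against 3 Trpm2-/- libraries, with filled points where the adjusted p is under 0.05. The values run from -0.50 for Rxra to 0.98 for Ppara, and Pax8 at 0.47 is the only filled point.

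Pax8 (ENSMUSG00000026976, chr2:24420560-24475599), the paired-box factor of tubule epithelium, was the factor called. Its level was 19.6, 17.1 and 17.5 FPKM in WT1, WT2 and WT3 and 24.4, 27.5 and 24.0 FPKM in KO1, KO2 and KO4. All 3 Trpm2-/- libraries lay above all 3 WT libraries. In CPM, Pax8 rose from 125 ± 8.74 to 174 ± 14.2 (SD, n = 3 each), a log2 fold change of 0.47 (SE 0.128, 95% interval 0.19 to 0.76, adjusted p = 0.0415 by edgeR). The call was close to its threshold: with 1 library left out the log2 fold change stayed between 0.40 and 0.53, but the adjusted p was under 0.05 only without KO4 (0.046) and lay between 0.0592 and 0.195 without each of WT1, WT2, WT3, KO1 and KO2. The adjusted p was 0.0529 in edgeR with no filter on low counts, 0.0529 with limma on log2(FPKM + 1) and 0.0195 with DESeq2. A transcript on the opposite strand, Gm13415, shares 367 exonic bases with Pax8, 6.06% of the exonic bases of Pax8, and the library kit does not mark strand.

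Hnf4a (ENSMUSG00000017950, chr2:163506808-163572910), the nuclear receptor at the centre of proximal tubule differentiation, was lower in every Trpm2-/- library but did not pass the adjusted test. It measured 69.9, 78.4 and 77.5 FPKM in WT1, WT2 and WT3 and 67.6, 55.1 and 39.4 FPKM in KO1, KO2 and KO4. KO1 lay just under the lowest WT library, KO4 far under it, and the genotypes did not overlap. Its log2 fold change was -0.49 (SE 0.195, 95% interval -0.93 to -0.05, adjusted p = 0.135 by edgeR), from 415 ± 26.7 to 296 ± 78.6 CPM. It ranged from -0.69 without KO1 to -0.29 without KO4, and KO4 is also the library with the highest podocyte, endothelial and fibroblast marker sums (534, 237 and 124 CPM). Whether that composition bears on the low Hnf4a value in KO4 was not tested.

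Hnf4g (ENSMUSG00000017688, chr3:3508030-3658052), the paralogue with a like binding preference, lay on the other side. Its level was 1.25, 0.855 and 0.915 FPKM in the WT libraries and 2.09, 1.43 and 1.77 FPKM in KO1, KO2 and KO4. The genotypes did not overlap, and every Trpm2-/- library exceeded the highest WT library. The fitted log2 difference was 0.79 (SE 0.292, 95% interval 0.14 to 1.45, adjusted p = 0.109 by edgeR). It rested on 40 to 61 reads per WT library and 63 to 102 reads per Trpm2-/- library, and it ran from 0.65 to 0.97 with 1 library left out.

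Rxra (ENSMUSG00000015846, chr2:27676440-27762957), the obligate partner of PPAR and many other receptors, showed an uneven spread in both genotypes. It measured 21.1, 28.5 and 21.2 FPKM in WT1, WT2 and WT3 and 21.1, 17.4 and 12.0 FPKM in KO1, KO2 and KO4. WT1 and KO1 were nearly level, at 132 and 131 CPM, so the gap between the genotypes was about 1 CPM, while WT2 was high and KO4 low. Its log2 fold change was -0.50 (SE 0.212, 95% interval -0.98 to -0.02, adjusted p = 0.158 by edgeR), and it was -0.29 without KO4 and -0.35 without WT2.

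Ppara (ENSMUSG00000022383, chr15:85734983-85802819), the receptor that switches on fatty acid oxidation, had the highest fold change of the 8 and the widest interval. It measured 6.90, 6.67 and 3.74 FPKM in WT1, WT2 and WT3 and 19.4, 9.33 and 5.61 FPKM in KO1, KO2 and KO4. KO1 alone was more than 2-fold above every other library, while KO4 lay below WT1 and WT2, so the genotypes overlapped. The log2 fold change was 0.98 (SE 0.403, 95% interval 0.08 to 1.88, adjusted p = 0.146 by edgeR), and it was 0.36 without KO1 and 1.32 without KO4 (adjusted p = 0.0375). Without KO1 the adjusted p of Ppara was 0.501 by edgeR. With no filter on low counts it was 8.14e-07 in edgeR with all 6 libraries. Other methods did not call Ppara: its adjusted p was 0.292 with DESeq2 and 0.319 with limma on log2(FPKM + 1). It was 0.449 with that limma test and no filter.

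Ppargc1a (ENSMUSG00000029167, chr5:51454250-51567726), the coactivator of mitochondrial biogenesis, was low in KO2 in particular. It measured 5.28, 5.12 and 6.49 FPKM in WT1, WT2 and WT3 and 4.06, 2.93 and 5.38 FPKM in KO1, KO2 and KO4. KO4 lay between the WT libraries and the other 2 lay below all of them. The log2 fold change was -0.46 (SE 0.208, 95% interval -0.93 to 0.01, adjusted p = 0.182 by edgeR), and -0.27 without KO2.

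Esrra (ENSMUSG00000024955, chr19:6910977-6921813), the receptor most tied to respiratory chain genes, was second in level in both genotypes. It measured 42.7, 41.0 and 48.4 FPKM in WT1, WT2 and WT3 and 30.8, 40.0 and 27.7 FPKM in KO1, KO2 and KO4. KO2 came close to the lowest WT library without reaching it, and the other 2 lay well under. The fitted log2 difference was -0.43 (SE 0.162, 95% interval -0.80 to -0.07, adjusted p = 0.112 by edgeR), and without KO2 it was -0.61 with an adjusted p of 0.0303. With any other library left out it lay between -0.49 (without WT2) and -0.31 (without KO4). Esrra was called in none of those fits, with adjusted p from 0.172 (without WT1) to 0.350 (without WT3) by edgeR.

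Esrrg (ENSMUSG00000026610, chr1:187608791-188214885), its paralogue, was nearly constant in 5 of the 6 libraries. It measured 4.92, 4.78 and 4.70 FPKM in WT1, WT2 and WT3, 5.23 FPKM in KO2 and 4.69 FPKM in KO4, against 8.42 FPKM in KO1. The genotypes overlapped. The log2 fold change of 0.34 (SE 0.208, 95% interval -0.13 to 0.80, adjusted p = 0.325 by edgeR) became 0.03 without KO1, the library that was also alone at the top for Ppara.

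Ratios within a library were compared for 4 pairs, since a ratio is free of the scaling between libraries. With 3 libraries against 3, the exact two-sided permutation test cannot give a p below 0.1, so no pair could pass 0.05. Hnf4a exceeded Hnf4g by 5.80, 6.52 and 6.40 on the log2 FPKM scale in WT1, WT2 and WT3 and by 5.02, 5.26 and 4.48 in KO1, KO2 and KO4. The gap between the paralogues was therefore narrower in all 3 Trpm2-/- libraries, by a difference of -1.32 (exact permutation p = 0.1, adjusted p = 0.133 over the 4 pairs). Since Hnf4a was lower and Hnf4g higher in every Trpm2-/- library, this separation and its p were fixed by the single-gene values. The ratio adds no separate evidence. The ratio of Esrra to Esrrg moved likewise, from 3.19 ± 0.148 to 2.46 ± 0.541 (difference -0.74, SD with n = 3, exact permutation p = 0.1, adjusted p = 0.133), and the difference was -0.44 without KO1, the library in which Esrrg was highest. Ppara relative to its partner Rxra went from -2.07 ± 0.446 to -0.71 ± 0.518 (difference 1.37, exact permutation p = 0.1, adjusted p = 0.133), without overlap and with KO1 at the top (-0.12). Ppargc1a relative to Esrra showed no separation, at -2.97 ± 0.0647 in WT and -3.02 ± 0.707 in Trpm2-/- (difference -0.05, exact permutation p = 0.9), with KO2 (-3.77) and KO4 (-2.37) on opposite sides of the WT libraries.

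**Figure D3:**
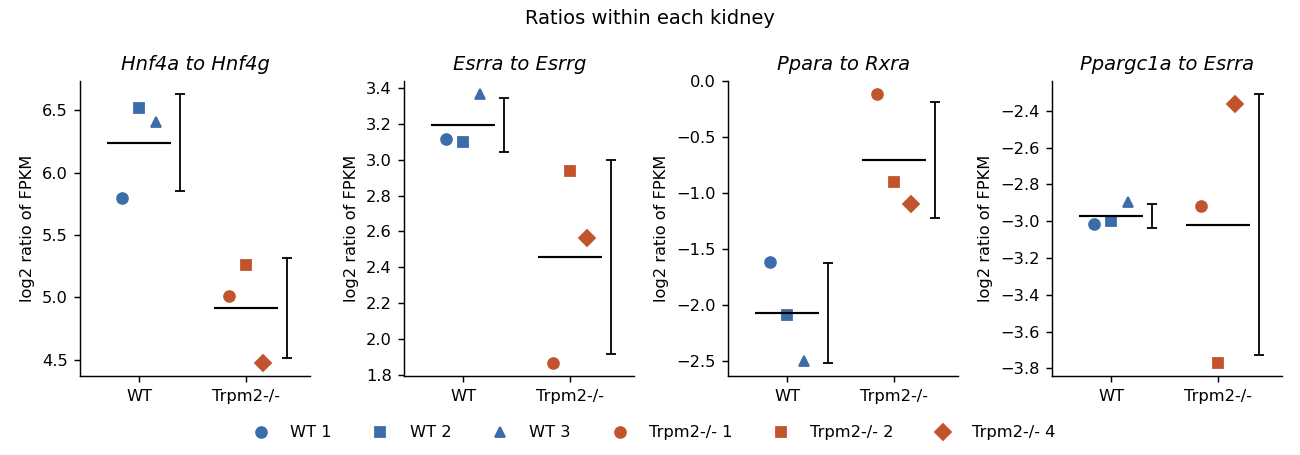
Log2 ratio of FPKM (vertical axis) for 4 pairs of factors in the 3 WT and 3 Trpm2-/- libraries, 1 point per library, with the group mean as a horizontal bar and ± 1 SD as the bracket. The axes do not start at 0. The first 3 pairs separate by genotype (differences of -1.32, -0.74 and 1.37), and Ppargc1a to Esrra does not (-0.05). The separation of Hnf4a to Hnf4g follows from the single-gene values.

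Of 31 coregulators and receptor partners of these factors that were tested, 2 were called lower and 3 higher, with a median log2 fold change of 0.16, against a median of 0.02 over all genes. These counts were near the share of all genes called (7.28% lower and 4.74% higher). Sirt3, the mitochondrial deacetylase induced by Ppargc1a with Esrra, measured 5.83, 6.78 and 6.04 FPKM in WT and 3.41, 3.12 and 3.31 FPKM in Trpm2-/-, and it fell by 0.93 on the log2 scale (SE 0.129, adjusted p = 0.00333 by edgeR). Ep300, an acetyltransferase coactivator, rose from 2.64 ± 0.270 to 4.82 ± 0.942 FPKM (log2 fold change 0.86, adjusted p = 0.0107), and Nrip1, a corepressor of nuclear receptors, rose from 2.59 ± 0.165 to 4.67 ± 1.17 FPKM (0.84, adjusted p = 0.0168). Both were highest in KO1, at 5.90 and 6.02 FPKM, as Ppara and Esrrg were, and each lost its call without WT2 or WT3. The other 2 called genes, named after their values were seen, were Esrrb (-0.99, adjusted p = 0.0397 by edgeR), the third estrogen-related receptor, and Ncoa2 (0.77, adjusted p = 0.0248), a steroid receptor coactivator. Esrrb lost its call without WT1, WT3, KO1, KO2 or KO4, and Ncoa2 without WT1, WT2 or WT3, and neither was called by limma. The 3 most abundant of the list did not pass the test: Prkaa2, a catalytic subunit of AMP-activated kinase (-0.05), Rxrb, the paralogue of Rxra (-0.25), and Crtc2, a coactivator of the cyclic AMP response (-0.11).

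Among 31 other transcription factors of the tubule, 4 were called lower and 0 higher, with a median of 0.03, where 7.28% of all genes were lower and 4.74% higher, so nothing particular to this list is read from its counts. Klf15, a glucocorticoid-inducible regulator of amino acid and lipid metabolism, fell from 23.1, 26.7 and 28.1 FPKM in WT to 9.87, 11.5 and 8.66 FPKM in Trpm2-/- (log2 fold change -1.39, SE 0.151, adjusted p = 0.00150 by edgeR). Its size exceeded that of any of the 8 factors, and its libraries were well apart. Emx1, a homeobox factor, fell by 1.24 (adjusted p = 0.00874), and Irx1, another homeobox factor of the nephron, named after its values were seen, was also called (-1.32, adjusted p = 0.0364), though not without WT1, WT3, KO1 or KO4. Of the most abundant, Nr1h4, the bile acid receptor FXR, measured 60.9 ± 9.78 FPKM in WT and 39.6 ± 8.12 FPKM in Trpm2-/- (-0.63, adjusted p = 0.0557), while Cebpb (0.04) and Vdr, the vitamin D receptor (0.23), overlapped between genotypes.

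Many genes listed as targets of the oxidative factors were lower in Trpm2-/-. Of 48 genes listed as targets of ERR receptors and PGC-1, 32 were called lower and 0 higher, with a median log2 fold change of -0.73. Esrra, Esrrg and Ppargc1a were not themselves called, and whether they had a part in these values was not tested. Of all genes tested, 7.28% were called lower and 4.74% higher, with a median of 0.02. The list was chosen with earlier results of these data known. Mdh1, the cytosolic malate dehydrogenase, fell from 351 ± 49.8 to 135 ± 18.0 FPKM (log2 fold change -1.39, adjusted p = 0.00217 by edgeR). Etfa, which passes electrons from fatty acid oxidation to the respiratory chain, fell by 1.09 (adjusted p = 0.00332) and Ndufv1, a complex I subunit, by 1.01 (adjusted p = 0.00380). The most abundant members, the cytochrome c oxidase subunits Cox8a (-0.81), Cox6a1 (-0.68) and Cox4i1 (-0.72), fell too, with adjusted p between 0.0305 and 0.0312. Of the list, 47 of 48 genes had a negative value. Without WT2 or WT3, 16 and 15 of the 48 were called lower, and 15 with limma on unfiltered FPKM.

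Of 36 PPARA target genes tested, 10 were called lower and 0 higher, with a median of -0.35, where 7.28% of all genes were lower and 4.74% higher. The count higher was 1 with other size factors and 3 with DESeq2. Acadm, the medium-chain acyl-CoA dehydrogenase, fell from 126, 160 and 150 FPKM in WT to 61.6, 55.3 and 56.7 FPKM in Trpm2-/- (log2 fold change -1.34, SE 0.148, adjusted p = 0.00150 by edgeR). Acaa2, the mitochondrial thiolase of the same pathway, fell by 0.99 (adjusted p = 0.00338). The fatty acid hydroxylases Cyp4a14 and Cyp4a10 fell by 1.95 and 1.00 (adjusted p = 0.00397 and 0.00770), although reads of this multigene family may have been divided among near-identical copies. Plin2, a lipid droplet coat protein, was 301 ± 14.3 FPKM in WT and 377 ± 22.6 FPKM in Trpm2-/- without passing the test (0.31, adjusted p = 0.199). Of the 36 targets, 29 had a negative and 7 a positive log2 fold change, the highest at 1.23. By the threshold of the study's methods 2 were lower and 1 higher. The receptor itself was at 0.98, not called, overlapping between genotypes, and at 0.36 without KO1. Its sign is therefore not set against that of its targets.

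Mature proximal tubule genes were called lower in 34 of 46 cases and higher in 0, with a median of -1.23. The count lower was 24 without WT2, 23 without WT3 and 14 with limma on unfiltered FPKM. Of all genes tested, 7.28% were called lower and 4.74% higher. Kap, an androgen-regulated kidney protein, fell from 7747 ± 1307 to 2551 ± 806 FPKM (log2 fold change -1.62, adjusted p = 0.00475 by edgeR). Pck1 and Fbp1, enzymes of gluconeogenesis, fell by 1.73 and 1.98, Khk, which phosphorylates fructose, by 1.57, and Amn, part of the receptor for filtered proteins, by 1.25. Tubular injury genes went the other way, with 9 of 24 called higher and 0 lower (median 0.48), a count that was 3 without WT2, 2 without WT3 and 5 without KO1. Vim, an intermediate filament gene, rose by 1.23 (adjusted p = 0.00261), Timp1 by 0.87 (adjusted p = 0.00683) and Myc by 0.65 (adjusted p = 0.00981). Which cells of the kidney held these transcripts was not tested. Havcr1, the kidney injury molecule KIM-1, was at 467 ± 53.9 FPKM in WT and 668 ± 63.7 FPKM in Trpm2-/- (0.51, adjusted p = 0.0747). Clu (0.56) and Spp1 (0.23) did not pass the test. Among markers of other cell types, 2 of 7 thick ascending limb, 2 of 6 principal cell, 2 of 7 macrophage, 2 of 5 urothelial and 1 of 7 endothelial markers were called lower and 0 higher. Of the tested distal convoluted tubule (5), intercalated cell (7), podocyte (6), fibroblast and pericyte (5), neutrophil (5) and lymphocyte (1) markers, 0 were called. The share of all genes called lower was 7.28%. The part of these cell types in the values of the 8 factors, several of which other tubule segments express, was not tested.

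**Figure D4:**
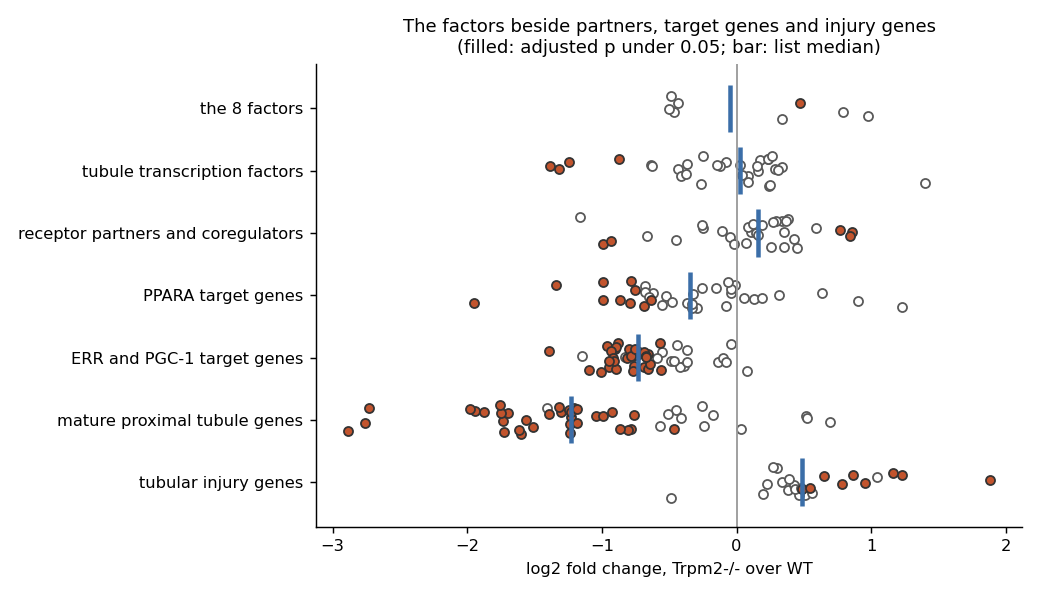
Log2 fold change (Trpm2-/- minus WT, edgeR, 3 libraries each) of every tested gene of the 8 factors and of 6 lists, 1 point per gene, filled where the adjusted p is under 0.05, with each median as a blue bar. The 8 factors (median -0.05), other tubule factors (0.03) and partners (0.16) are centred near 0, while PPARA targets (-0.35), ERR and PGC-1 targets (-0.73) and mature proximal tubule genes (-1.23) lie lower and injury genes (0.48) higher.

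The genes whose profile over the 6 libraries lay nearest to that of Pax8, the called factor, were sought among 13009 genes of at least 1 CPM on average. By root mean square distance of centred log2 CPM values they included Btrc, an F-box protein (0.0400), and Pias3, a SUMO ligase (0.0443). Btrc was at 0.937, 0.822 and 0.838 FPKM in WT and 1.16, 1.22 and 1.13 FPKM in Trpm2-/- (log2 fold change 0.42, adjusted p = 0.0904 by edgeR), without overlap and without passing the test. Because these genes were chosen for likeness to Pax8, their direction and separation by genotype follow from the choice. The likeness describes these 6 libraries only.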

How the data were processed

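Whole-kidney RNA-seq of 3 WT and 3 Trpm2-/- mice was analysed from a table of 54532 genes holding, for each sample, raw read counts and FPKM, both made by the authors and deposited together. The submitters' processing notes name HISAT2, StringTie and the build mm9. The positions in the table, however, equal those of GENCODE M21 on GRCm38 for 8 of 8 genes described, and positions are given on that build. The library kit does not mark strand, and the strand setting of the counting is not given in the sources used here. No column of samples was left unused (0).

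Deposited counts were tested with edgeR 4.0.16 in R 4.3.3 (filterByExpr, TMM scaling, quasi-likelihood test on genotype, common dispersion 0.0445, Benjamini-Hochberg adjustment over 15816 genes). A call is an adjusted p under 0.05. Intervals are at 95%. Deposited FPKM values served for levels, for ratios, tested by exact permutation, and for limma 3.58.1 on log2(FPKM + 1) and log2(FPKM + 0.1). DESeq2 1.42.0, other scalings and filters, a replicate block and each library left out were alternatives. The scripts were tested on simulated data. Replicates differed by more than counting noise (chi-square per degree of freedom 14.7 to 40.8), so each counted as 1 sample. The edgeR p-values set the genotype difference against the spread between these samples, which was estimated for each gene partly from the other genes.

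The 8 genes and all lists were chosen with earlier results of these data known. Named genes are the 8, Trpm2, the 3 most abundant and the 3 of smallest p in each list, and the 3 nearest profiles to a called factor. Exceptions are stated where they occur, and a few genes that the rule names are not reported here.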

Additional observations from a re-analysis of the deposited data

How the results depend on the processing

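Hnf4g, at 40 to 102 reads, had the lowest depth of the 8 factors. With other size factors, without mitochondrial genome genes, with a filter at 1 CPM in 3 libraries and with DESeq2, Pax8 was the factor called in each. PPARA targets called higher were then 1, 1, 1 and 3, and 1 mature proximal tubule gene was higher with DESeq2. Without a filter, 1262 genes were higher (1073 at the methods' threshold), and 2 factors were lower (Hnf4a, adjusted p = 0.0438, and Rxra, 0.0241), while Ppara (8.14e-07) was higher in place of Pax8 (0.0529). PPARA targets were then 18 lower and 3 higher, with 1 other tubule factor higher, 3 mature proximal tubule genes higher and 1 injury gene lower. Limma on log2(FPKM + 1) called 754 genes lower and 304 higher (398 and 117 at the methods' threshold), 0 factors higher, 1 partner in each direction and 5 injury genes higher, and gave 0.032 for the ratio of Ppargc1a to Esrra. With a pseudocount of 0.1 the counts were 338 genes higher, 0 factors, 1 partner in each direction and 5 injury genes. Without a filter limma called 405 lower and 105 higher (390 and 110), 0 factors, 1 other tubule factor lower, 1 partner lower and 0 higher, 5 PPARA, 15 ERR and 14 mature proximal tubule genes lower, and 3 injury genes higher. The cause of these shifts was not tested.

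The replicate numbers 1 and 2 are shared by the genotypes but mark different mice. Deviations of same-numbered libraries from their group mean correlated at 0.0641 and -0.01205. Differently numbered pairs ran from -0.2477 (WT3 with KO1) to 0.2169 (WT3 with KO4). Deviations from a mean of 3 libraries are tied to one another, so these values cannot show whether same-numbered libraries were handled together. WT3 and KO4 have no same-numbered library in the other genotype. With the replicate block the genotype difference therefore came only from WT1, WT2, KO1 and KO2. In that fit 661 genes were lower and 341 higher, and Ppara (adjusted p = 0.0438 by edgeR) was called in place of Pax8 (0.163). KO4, the lowest Trpm2-/- library for Ppara, did not enter that difference. With the block 1 partner was lower, 5 PPARA targets were lower and 1 higher, and 13 ERR targets were lower. Also, 1 mature proximal tubule gene was higher, 5 injury genes were higher, and Trmt112 was at 0.027.

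With 1 library left out in turn, genes called ranged from 470 to 1240 lower and 160 to 819 higher (538 to 863 and 476 to 743 at the methods' threshold), and factors from 0 to 1 lower (Esrra, without KO2) and 0 to 2 higher (Pax8 and Ppara, without KO4). The lowest counts of all genes came without WT3 (470 and 160) and WT2 (521 and 176), and 421 were higher without KO1. Other tubule factors ranged from 3 to 5 lower and 0 to 1 higher, partners from 1 to 2 lower and 0 to 3 higher, PPARA targets from 7 to 13 lower and 0 to 2 higher, ERR targets from 15 to 35 lower, mature proximal tubule genes from 23 to 32 lower and 0 to 1 higher, and injury genes from 2 to 9 higher. Ratios ran from -1.54 to -1.10 (Hnf4a to Hnf4g), -0.98 to -0.44 (Esrra to Esrrg), 1.07 to 1.59 (Ppara to Rxra) and -0.37 to 0.33 (Ppargc1a to Esrra). Single log2 fold changes that turned sign were Cebpb (-0.10 to 0.29), Prkaa2 (-0.35 to 0.14) and Trpm2 (-0.024 to 1.61). Relative to mature proximal tubule genes, chosen after seeing the data, Hnf4a (0.64), Ppargc1a (0.67), Esrra (0.72) and Rxra (0.64) turned positive, as any gene above -1.16 must, because the mean subtracted differed by -1.16, so nothing is read from these signs.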

Other observations

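The long antisense transcript Hnf4aos, which lies on the opposite strand of Hnf4a (chr2:163493807-163541720) and was named after its values were seen, differed more than Hnf4a itself. It had 126, 161 and 194 reads in WT1, WT2 and WT3 and 28, 21 and 35 reads in KO1, KO2 and KO4, and fell by 2.49 on the log2 scale (SE 0.288, adjusted p = 0.00166 by edgeR's quasi-likelihood test). It shares 0 exonic bases with Hnf4a. Every WT library held at least 126 reads and no Trpm2-/- library more than 35. Whether unspliced Hnf4a reads enter this count could not be separated, since the libraries do not mark strand.

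Gm13415, the transcript opposite Pax8, had 38, 43 and 32 reads in WT and 97, 56 and 73 reads in Trpm2-/- (log2 fold change 1.02, SE 0.306, adjusted p = 0.0593 by edgeR), on the same side as Pax8 and with no overlap. Trmt112, a methyltransferase cofactor that shares 73 exonic bases with Esrra, was at -0.08 (adjusted p = 0.767), unlike Esrra at -0.43. Both were named after their values were seen.

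Among 14568 genes of at least 1 CPM on average, 42 (0.288%) were at least 2-fold higher in KO1 than in every other library, and Ppara was one of them, at 2.07 times the next library. The same count was 123 (0.844%) for KO4, 55 for WT1, 32 for KO2, 31 for WT3 and 8 for WT2.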
